A study of Mus musculus with 9 samples.

Results

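The endoderm genes described here are 10 genes that early endoderm or its derivatives express, among 38197 gene symbols in the deposited tables. They were chosen by exact symbol, with earlier results of these data known, and are described by time point and by replicate number. They comprise the transcription factor (TF) genes Sox17, Gata4, Gata6 and Cdx4, the secreted protein genes Afp, Ttr and Apoa1, and the epithelial genes Epcam, Krt8 and Krt18. RNA was measured in neural stem cells (NSCs) derived from wild-type mouse embryonic stem cells (ESCs) of strain 129, grown as a monolayer, exposed to retinoic acid and SAG, a Smo agonist, over 0 to 3 days in differentiation conditions (DDC) by the labels, and somewhat longer by the methods of the study, and sorted on magnetic beads for prominin-1, which neural progenitors carry on their surface. There were 3 libraries at each of 4.5DDC, 5.5DDC and 6.5DDC, 9 in all. All of them share genotype, treatment and type of sort, so time is the only difference between the groups that the labels name. A label field gives the times as 4, 5 and 6 days instead. The labels number the libraries of each time point from 1 to 3 but do not say what libraries of 1 number share, nor whether they are separate cultures, so the p-values measure the spread between these samples, which may be technical.

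Endoderm forms the lining of the gut and organs such as liver and pancreas, and in the mouse a separate extraembryonic endoderm forms the parietal and visceral layers around the embryo. Gata4 and Gata6 are zinc-finger TFs that direct extraembryonic endoderm and act again in definitive endoderm and heart. Sox17 is an HMG-box TF of endoderm and blood vessels, and Cdx4 is a caudal homeobox TF of the posterior embryo. Afp, Ttr and Apoa1 encode an albumin-like serum protein, a carrier of thyroid hormone and the main protein of high-density lipoprotein, and visceral endoderm and liver secrete all of them. Ttr is also a marker of the choroid plexus of the brain. Epcam encodes an adhesion molecule of epithelia, and Krt8 and Krt18 encode the partner keratins of simple epithelia, so none of these 3 marks endoderm alone.

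Promoter windows from RefSeq (GRCm38.p6) matched 6 of the 10 genes, namely Afp, Apoa1, Krt8, Krt18, Epcam and Cdx4. Because Gata4 and Gata6 bind sites with GATA at their core, the letters AGATAA, or AGATAG in its place, and likewise TGATAA, or TGATAG in its place, were searched on both strands, and 2 of the 6 windows held a match, Apoa1 and Krt8. Of all 32851 windows, 29.8% held one, so a match is common. The promoters of the keratin pair, the most abundant of the 10 genes, and of Apoa1 are shown up to the base before the annotated gene. Capitals mark the match, which in Apoa1 reads on the opposite strand. A second match in the Apoa1 window lies inside the gene and is not shown.
Krt8, chr15:102004483-102004592, minus strand: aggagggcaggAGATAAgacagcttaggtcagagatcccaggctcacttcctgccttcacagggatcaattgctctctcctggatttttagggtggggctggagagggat
Krt18, chr15:102027966-102028179, plus strand: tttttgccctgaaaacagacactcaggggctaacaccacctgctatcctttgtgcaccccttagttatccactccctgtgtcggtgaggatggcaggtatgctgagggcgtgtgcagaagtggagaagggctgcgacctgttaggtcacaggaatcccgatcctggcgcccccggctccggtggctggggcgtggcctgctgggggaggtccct
Apoa1, chr9:46228380-46228579, plus strand: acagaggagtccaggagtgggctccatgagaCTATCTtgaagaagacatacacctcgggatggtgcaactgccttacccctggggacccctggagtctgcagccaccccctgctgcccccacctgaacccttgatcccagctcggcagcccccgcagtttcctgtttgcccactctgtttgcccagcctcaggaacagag
Krt8 and Krt18 are neighbours on chromosome 15 with 23698 bases between their starts, and of the pair only the Krt8 stretch holds one of the forms searched. The letters TATAAA, searched on both strands, occurred in the windows of Afp and Krt8 and in 13.6% of all windows. A match is a description of the letters, not of binding.

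The sorted fraction had the NSC markers Sox2 and Prom1 at high levels and lacked most of the markers that define endoderm. Levels are given as the authors' FPKM (fragments scaled to transcript length and to mapped reads). Sox2, a TF of neural progenitors, had 82.1 ± 5.18 FPKM at 4.5DDC and 87.6 ± 7.37 at 6.5DDC (SD, n = 3), and Prom1, which encodes the sorted antigen, had 79.1 ± 14.3 and 183 ± 27.2 FPKM. Of 11 neural progenitor genes, 5 were higher and 6 lower on counts at 6.5DDC than at 4.5DDC. Sox3 was among the lower ones, with means of 8.29 and 2.38 FPKM. Neuron genes were abundant too, such as Stmn2 with 67.4 ± 37.7 and 160 ± 63.4 FPKM. Of 13 TF genes of definitive endoderm and gut, only Foxa1 and Foxa2 had enough counts to be tested. Both are also floor plate genes, and this ventral neural tissue has high Shh (147 ± 34.8 FPKM at 4.5DDC). Pdx1, of the pancreas, had 0 counts in every library, and Gsc and Foxa3 reached 2 and 3 counts over the 9 libraries. Alb and Apoa2, which encode serum albumin and an apolipoprotein of liver, had 2 counts each over the 9 libraries. Markers that define definitive endoderm and liver were thus at or near 0, while extraembryonic endoderm genes such as Lamb1 and Sparc were abundant but are made by other tissues as well.

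Library totals ran from 11066568 to 25506193 counts, and 3 counts, the floor of detection used here, stand for 0.118 to 0.271 CPM (counts scaled to the library total). Differences were tested on counts with edgeR's quasi-likelihood test over the 14742 genes that passed its expression filter, and a gene was called at an adjusted p under 0.05 over all of them. Sox17, Gata4, Gata6, Epcam, Krt8 and Krt18 passed the filter, 6 of the 10. Afp, Ttr, Apoa1 and Cdx4 did not, and they are described by their counts. In bulk samples, fewer cells of a type and less RNA per cell cannot be told apart.

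The keratin pair was expressed far above the other 8 genes. Krt18 had 39.5 ± 16.7 FPKM at 4.5DDC, 34.6 ± 12.7 at 5.5DDC and 26.3 ± 5.92 at 6.5DDC (SD, n = 3), and Krt8 had 14.2 ± 1.41, 12.6 ± 0.533 and 10.5 ± 2.36 FPKM. At every time point the libraries of Krt18 lay above those of Krt8, and those of Krt8 above all other genes of the group. Gata4 was next, with means of 1.36, 1.26 and 3.54 FPKM, and its libraries overlapped with those of the next gene at each time point. The remaining genes had means under 1 FPKM. Their order differed between time points, and neighbours in it overlapped at 4.5DDC and 6.5DDC and, with the exception of Sox17 above Afp, at 5.5DDC.

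**Figure D1:**
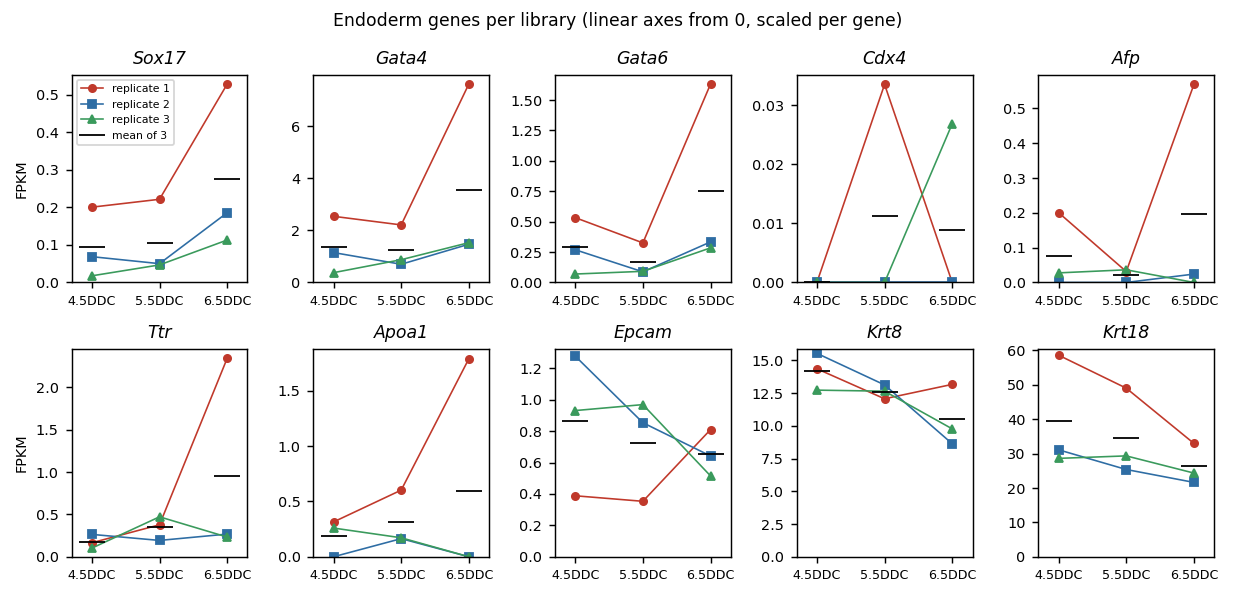
Level of each endoderm gene in FPKM (vertical axis, linear from 0 and scaled per gene) at 4.5DDC, 5.5DDC and 6.5DDC (horizontal axis). Points are libraries, lines join libraries of the same replicate number and black bars are means of 3; replicate 1 is highest at every time point for Sox17, Gata4, Gata6 and Krt18, and reaches 7.62 FPKM for Gata4 at 6.5DDC.

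The GRCm38 position of Gata4 is chr14:63198922-63271692 (minus strand). In replicates 1, 2 and 3, its level was 2.54, 1.15 and 0.376 FPKM at 4.5DDC. It was 2.21, 0.699 and 0.874 FPKM at 5.5DDC and 7.62, 1.47 and 1.53 FPKM at 6.5DDC. Replicate 1 was thus highest at each time point, and replicate 1 of 6.5DDC stood above the other 8 libraries. That library held 219 of the 566 Gata4 counts. FPKM per CPM of Gata4 varied between libraries from 0.323 to 0.624, so its FPKM does not scale with its counts alone.

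Gata6 is at chr18:11052064-11085635 (plus strand), and an antisense transcript covers 1.43% of its exonic bases. Its level was 0.533, 0.269 and 0.0693 FPKM at 4.5DDC, 0.325, 0.0874 and 0.0916 FPKM at 5.5DDC and 1.63, 0.334 and 0.285 FPKM at 6.5DDC, in replicates 1, 2 and 3. The pattern over libraries was that of Gata4, with replicate 1 on top at each time point. It rests on 217 counts, as few as 4 in a library.

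Sox17, at chr1:4490931-4497354 (minus strand), was lower still. In replicates 1, 2 and 3 it had 14, 3 and 1 counts at 4.5DDC, 22, 2 and 2 counts at 5.5DDC and 27, 13 and 7 counts at 6.5DDC. Its highest level was 0.529 FPKM, in replicate 1 of 6.5DDC. An antisense gene overlaps 16.8% of its exonic bases, and without a stated strand setting its reads cannot be told apart.

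Among the secreted protein genes, Afp and Apoa1 were detected mainly in replicate 1. Afp, at chr5:90490737-90508907, had 9, 0 and 1 counts at 4.5DDC, 2, 0 and 1 at 5.5DDC and 19, 1 and 0 at 6.5DDC. Its neighbour Alb, which ends 14135 bases before it, stayed at 2 counts in all. Apoa1, at chr9:46228580-46230466, had 4, 0 and 3 counts at 4.5DDC, 18, 1 and 1 at 5.5DDC and 12, 0 and 0 at 6.5DDC, and its FPKM per CPM varied from 0.87 to 1.93. Replicate 1 held 30 of 33 Afp counts (90.9%, exact Clopper-Pearson 95% interval 75.7 to 98.1%) and 34 of 39 Apoa1 counts (87.2%, 72.6 to 95.7%), against 41.1% of the counts of all genes. These intervals cover counting error only.

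Ttr differed from Afp and Apoa1 in that it had counts in every library, under the floor of 3 in 1 of them. It is at chr18:20665280-20674321 and had 4, 4 and 2 counts at 4.5DDC, 13, 3 and 7 at 5.5DDC and 40, 6 and 5 at 6.5DDC. At 4.5DDC and 5.5DDC replicate 1 did not stand apart, with 0.165 against 0.264 and 0.102 FPKM and with 0.378 against 0.193 and 0.472 FPKM. At 6.5DDC it had 2.34 FPKM against 0.268 and 0.233. Its share of counts in replicate 1 (67.9%, 56.8 to 77.6%) was therefore due mostly to the 40 counts of 1 library. Two-sided exact permutation tests of FPKM between time points gave p = 0.2 or more for Afp, Ttr and Apoa1, where 3 libraries against 3 allow no p under 0.1.

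Cdx4, at chrX:103321398-103330592, had 3 counts over the 9 libraries, 2 in replicate 1 of 5.5DDC and 1 in replicate 3 of 6.5DDC. It was at 0 in the other 7 libraries, which allows up to 0.330 CPM in the shallowest of them (upper end of the 95% interval for counting error). No comparison was detectable at this depth.

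Epcam, at chr17:87635979-87651129, had the opposite distribution in the first 2 time points. In replicates 1, 2 and 3 its level was 0.388, 1.28 and 0.931 FPKM at 4.5DDC and 0.353, 0.854 and 0.969 FPKM at 5.5DDC, with replicate 1 lowest. At 6.5DDC it was 0.810, 0.642 and 0.515 FPKM, with replicate 1 highest. Replicate 1 held 28.1% of its 228 counts (22.3 to 34.4%).

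Krt18, at chr15:102028180-102032027 (plus strand), had 58.6, 31.1 and 28.6 FPKM at 4.5DDC, 49.0, 25.4 and 29.3 FPKM at 5.5DDC and 33.0, 21.6 and 24.3 FPKM at 6.5DDC. Krt8, at chr15:101996698-102004482 (minus strand), had 14.4, 15.5 and 12.7 FPKM at 4.5DDC, 12.1, 13.1 and 12.7 FPKM at 5.5DDC and 13.2, 8.63 and 9.77 FPKM at 6.5DDC. Replicate 1 was thus highest for Krt18 at each time point and for Krt8 only at 6.5DDC. The ratio of Krt18 to Krt8 in FPKM was 4.08 and 4.06 in replicate 1 of 4.5DDC and 5.5DDC and between 1.93 and 2.32 in replicates 2 and 3 of these times. At 6.5DDC it was 2.50, 2.51 and 2.49 in the 3 libraries. The keratins thus did not keep a fixed ratio in the earlier libraries, and this difference was not tested. Of the exonic bases of Krt8, 5.16% overlap an antisense gene. Reads shared with its processed pseudogene Krt8-ps could also affect its counts, which was not checked.

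The question which of these genes differed between time points was addressed in a fit of all 9 libraries. From 4.5DDC to 5.5DDC 0 of the 6 tested genes were called by edgeR, where 0.0746% of all genes were, and from 5.5DDC to 6.5DDC 0 were called against 0.224%. Over the whole span 0 were called against 18.7% of all genes, and for any difference between the 3 time points 0 against 9.63%. The smallest adjusted p of a member was 0.69, 0.254, 0.164 and 0.201 in these comparisons. At an unadjusted p under 0.05 there were 0, 2, 0 and 0 genes, the 2 being Gata4 and Gata6 from 5.5DDC to 6.5DDC. DESeq2 and limma voom also called 0 in each. When the model also held a block for replicate number, 4 of the 6 genes were called over the whole span and 3 for any difference, against 3418 and 2180 of all 14742 genes. No tested member had time points without overlap between libraries, whereas 25.4% of all genes had none in the first interval, 25.4% in the second and 35.1% over the whole span.

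For the TF genes the intervals of these changes were wide. From 4.5DDC to 6.5DDC the log2 fold change of Gata4 was 1.59 (standard error 0.761, 95% interval −0.107 to 3.29, adjusted p = 0.164 from edgeR). That of Sox17 was 1.49 (−0.497 to 3.48, adjusted p = 0.259) and that of Gata6 1.35 (−0.567 to 3.27, adjusted p = 0.288). The values of Gata4, Gata6 and Sox17 were 0.18, 0.05 and 0.62 without replicate 1 of 6.5DDC. Values from near 0 to above 3 lie within the intervals. Within replicates 2 and 3 Sox17 rose by 1.42 and 2.06, on few counts, so its rise was not confined to replicate 1. Gata4 had 0.281 and 1.44 within these numbers, and Gata6 had 0.325 and 1.78. The point estimates of the fit, which does not use the number, moved with single libraries. Leaving out replicate 1 of 4.5DDC moved them to 2.24, 2.18 and 2.73 instead.

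For the keratins the intervals were narrower. The log2 fold change over the whole span was −0.40 for Krt8 (standard error 0.204, interval −0.854 to 0.0579, adjusted p = 0.193) and −0.59 for Krt18 (standard error 0.327, −1.32 to 0.144, adjusted p = 0.228). Without replicate 1 of 6.5DDC, Krt8 fell by 0.63 (adjusted p = 0.034), and Krt18 had −0.81 (adjusted p = 0.14). Epcam had −0.39 (−1.55 to 0.763, adjusted p = 0.623). Within replicate numbers 1, 2 and 3, Krt18 had −0.776, −0.479 and −0.364, while Sox17 had 1.48, 1.42 and 2.06, so each kept its sign. The values of Gata4 within the numbers were 2.03, 0.281 and 1.44 and those of Gata6 1.66, 0.325 and 1.78.

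**Figure D2:**
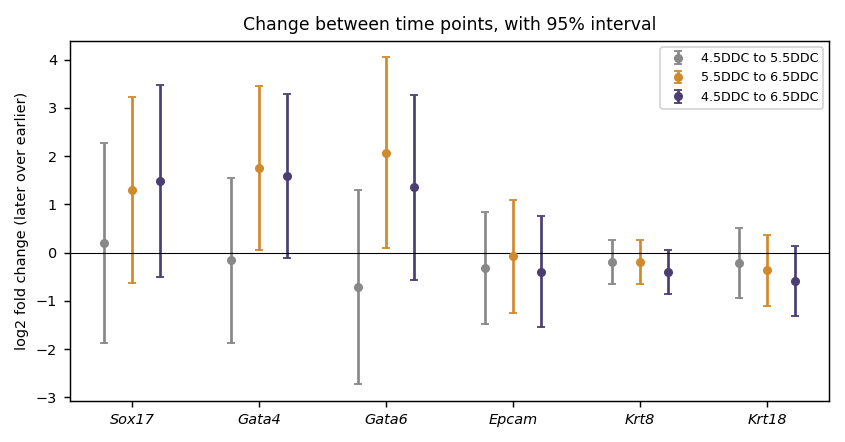
Log2 fold change between time points (vertical axis) of the 6 tested endoderm genes (horizontal axis), from edgeR with 95% intervals as bars. The intervals of Sox17, Gata4 and Gata6 span several log2 units, and all intervals include 0 except those of Gata4 and Gata6 from 5.5DDC to 6.5DDC, whose adjusted p was 0.259 and 0.254.

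Replicate numbers were compared next, as replicate 1 against the mean of replicates 2 and 3 with the time point in the model. Of the 6 tested genes, 4 were higher in replicate 1 and 0 lower, where 9.7% of all genes were called, 4.25% higher and 5.45% lower. Gata6 was 4.25-fold higher (log2 fold change 2.09, standard error 0.336, adjusted p = 0.00514 from edgeR) and Sox17 4.28-fold higher (2.10, standard error 0.380, adjusted p = 0.00843). Gata4 was 3.43-fold higher (1.78, standard error 0.321, adjusted p = 0.00826) and Krt18 1.73-fold higher (0.79, standard error 0.130, adjusted p = 0.00562). The same 4 genes had replicate 1 above both other libraries at every time point, as did 11.1% of all genes, and 0 had it below at every time point, as did 12.5%. The comparison was made with the separation of replicate 1 in these data already known, so it describes the libraries and is not independent support for a difference.

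Single libraries changed parts of this result. Krt18 missed the threshold when replicate 1 of 4.5DDC was left out (adjusted p = 0.0526), and Sox17 when replicate 1 of 5.5DDC was (adjusted p = 0.0537). Gata4 had 1.25 without replicate 1 of 6.5DDC (adjusted p = 0.0368), so it was not carried by that library alone. Afp and Apoa1 were also called higher when no filter on low counts was used (adjusted p = 0.0102 and 0.0207). The other genes did not pass the threshold. Krt8 had 0.18 (−0.230 to 0.591, adjusted p = 0.692), and Epcam had −0.73 (−1.68 to 0.222, adjusted p = 0.398). Without replicate 1 of 6.5DDC, Epcam was called lower in replicate 1, with −1.44 (adjusted p = 0.0263).

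**Figure D3:**
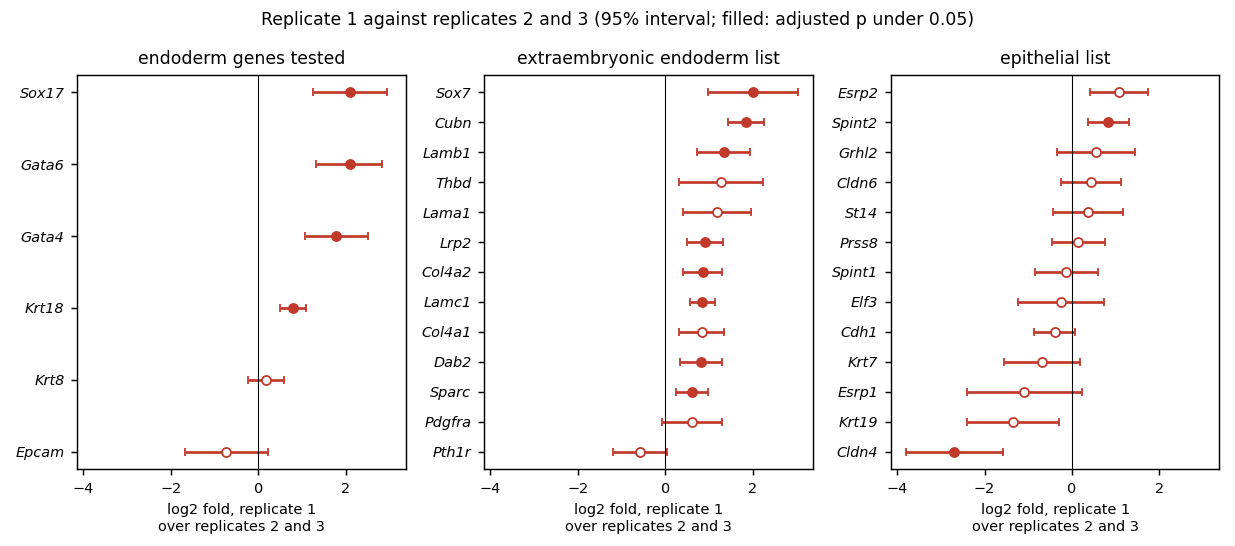
Log2 fold of replicate 1 over replicates 2 and 3 (horizontal axis) with 95% intervals from edgeR, for the tested endoderm genes, extraembryonic endoderm genes and epithelial genes (vertical axis). Filled points have an adjusted p under 0.05, which were 4 of 6, 8 of 13 and 2 of 13 genes.

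Genes of extraembryonic endoderm were set beside these. Of 14 on the list, 13 were tested and 8 were higher in replicate 1, with a median log2 fold of 0.858 against 0.0138 over all genes. They were Lamb1 and Lamc1 of laminin, Col4a2 of collagen IV, the secreted matrix protein gene Sparc, the endocytic genes Cubn, Lrp2 and Dab2, and the TF gene Sox7. The count was 2 without replicate 1 of 4.5DDC, 5 without replicate 1 or replicate 2 of 5.5DDC and 4 without replicate 1 of 6.5DDC, a check chosen after seeing the data. Lamb1 had 21.3, 13.6 and 9.04 FPKM at 4.5DDC, 13.5, 9.19 and 11.0 FPKM at 5.5DDC and 80.4, 21.3 and 16.7 FPKM at 6.5DDC. Sox7, a relative of Sox17, had 26, 7 and 3 counts, 21, 5 and 5 counts and 32, 5 and 5 counts. Both genes had replicate 1 on top at every time point, as Gata4, Gata6 and Sox17 did. The summed level of the list was 5403 CPM in replicate 1 of 6.5DDC and 1545 to 2785 CPM in the other libraries. From 4.5DDC to 6.5DDC 10 of the 13 tested genes had a positive log2 fold change, with a median of 0.66. Only Sparc was called (log2 fold change 1.18, adjusted p = 0.0227), where 18.7% of all genes were.

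Of 16 secreted protein genes of liver and yolk sac found in the tables, 4 had 0 counts throughout and 3 were tested, Apoe, Rbp4 and Mttp, none of which was called in replicate 1 (median −0.142). Among those not tested, Fgb had 34 of 43 counts in replicate 1 (79.1%, 64 to 90%). Against the mean of replicates 2 and 3 in CPM, replicate 1 was higher for Apob and lower for Apom at each time point. These values rest on few counts. Rbp4, which encodes the carrier of retinol, rose over the whole span (1.61, adjusted p = 0.00816). Of 13 tested genes of epithelial adhesion and keratins, Spint2 was higher in replicate 1 and Cldn4 lower, with a median of −0.136. This count was 4 without replicate 1 of 6.5DDC, 0 without replicate 1 of 4.5DDC or of 5.5DDC, and 1 without replicate 3 of 4.5DDC or without replicate 2 or 3 of 5.5DDC. Krt19, another keratin of simple epithelia, had 2.44, 14.5 and 7.99 FPKM at 4.5DDC, 2.27, 12.7 and 10.5 FPKM at 5.5DDC and 4.24, 4.90 and 6.92 FPKM at 6.5DDC, lowest in replicate 1 each time in FPKM but not at 6.5DDC in CPM, with 5.24 against 4.16 and 5.28 (log2 fold −1.34, adjusted p = 0.119). Over the whole span Prss8 and Spint1, a membrane protease and a protease inhibitor of epithelia, fell by 1.06 and 1.96 (adjusted p = 0.0389 and 0.0069 from edgeR). They were 2 of the 13 tested genes (median −0.641), where 18.7% of all genes were called.

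Among relatives of the TF genes, 4 of 8 were tested. Gata2 and Gata3, which also act in hindbrain neurons, rose from 4.5DDC to 6.5DDC (1.83 and 2.46, adjusted p = 0.00634 and 0.0189), and Gata3 was lower in replicate 1 (−1.38, adjusted p = 0.0112). Gata3 was thus lower in replicate 1, where Gata4 and Gata6 were higher, and Gata2 had −0.56 (adjusted p = 0.198). Cdx2 had −1.56 (adjusted p = 0.129).

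Markers of other tissues moved with replicate 1 too. Of 6 tested neuron genes, 5 were lower (median −1.42), and the summed level of the list was 859 to 1446 CPM in replicate 1 and 1671 to 3536 CPM in the others. The count was 4 without replicate 1 of 5.5DDC and 5 without any other library, checked after seeing the data. Of 11 neural progenitor genes Fabp7 and Nkx2-2 were lower (median −0.263), and the floor plate genes Foxa1 and Foxj1 were higher. Foxa1 was the only called gene of the definitive endoderm list. Of 5 tested choroid plexus and roof plate genes Cldn2 and Folr1 were higher (median 1.08). The summed level of the list was 48.1 to 64.1 CPM in replicate 1 against 14.6 to 18.4. Most of this sum was Folr1, with means of 21.7, 21.7 and 25 CPM at 4.5DDC, 5.5DDC and 6.5DDC. Its replicate 1 had 3.15, 3.82 and 4.31 times the mean CPM of replicates 2 and 3. Other genes of the list were near 0. Over the 3 libraries of these times, Kcne2 had 1, 0 and 0 counts and Kcnj13 had 2, 2 and 4. Otx2 had 3, 4 and 3 counts and Kl had 2, 6 and 7. Klf4 and Tfcp2l1 were higher among 4 tested pluripotency genes (median 1.03), while Pou5f1, which defines pluripotent cells, had 4 counts over the 9 libraries. Of 4 tested caudal genes T was higher (median −0.054), with 126 of 137 counts in replicate 1. Tbx20 was lower among 6 tested genes of heart and endothelium (median −0.853), and the surface ectoderm gene Tfap2c had −1.67 (adjusted p = 0.192). The part of these tissues in the values of the endoderm genes was not tested.

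The genes most alike to each tested member were ranked by Pearson's r of log2 CPM over the 9 libraries, among about 13015 genes, as a description. Gata4, Gata6 and Sox17 were alike among themselves, with r of 0.961 for Gata4 and Gata6, 0.951 for Gata6 and Sox17 and 0.931 for Gata4 and Sox17. The gene most like Gata4 was Lamb1 (r = 0.984, Spearman's rho 0.933), followed by Srgn (0.972), Slc35b3 (0.971), Capn6 (0.947) and Adamts9 (0.947). Lamb1 also led for Gata6 (0.971, rho 0.983), before Gata4, Clu (0.955), Srgn (0.952) and F3 (0.949). Sox17 was most like Anxa6 (0.972), Hbegf (0.957), Lxn (0.956), Pla2g16 (0.952) and Nab1 (0.949). These values share replicate 1 of 6.5DDC as the highest library. Without the 2 libraries farthest from the median of the other gene, which included it for all 5 genes named with Gata4, r of Gata4 was 0.901 with Lamb1, 0.957 with Srgn, 0.873 with Slc35b3, 0.784 with Capn6 and 0.641 with Adamts9. For Gata6 with Lamb1 it was 0.964.

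The keratins were less alike, with r of 0.536 between Krt8 and Krt18. Krt18 was most like Ptx3 (0.985), 6330416G13Rik (0.977), Sec24d (0.976), Pdzd2 (0.974) and BC067074 (0.972), and Krt8 was most like Gorasp2 (0.993), Cdc34-ps (0.985), Dera (0.983), Psmb2 (0.976) and Tpm3 (0.975). Epcam was most like Dusp9 (0.979), Ccdc137 (0.968), 2410131K14Rik (0.935), Krt7 (0.934) and Bend6 (0.934). Its r was −0.284 with Gata4, −0.317 with Gata6 and −0.475 with Sox17. With the keratins it was 0.368 for Krt8 and −0.526 for Krt18, so Epcam, Krt8 and Krt18 did not follow a shared pattern over the libraries.

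**Figure D4:**
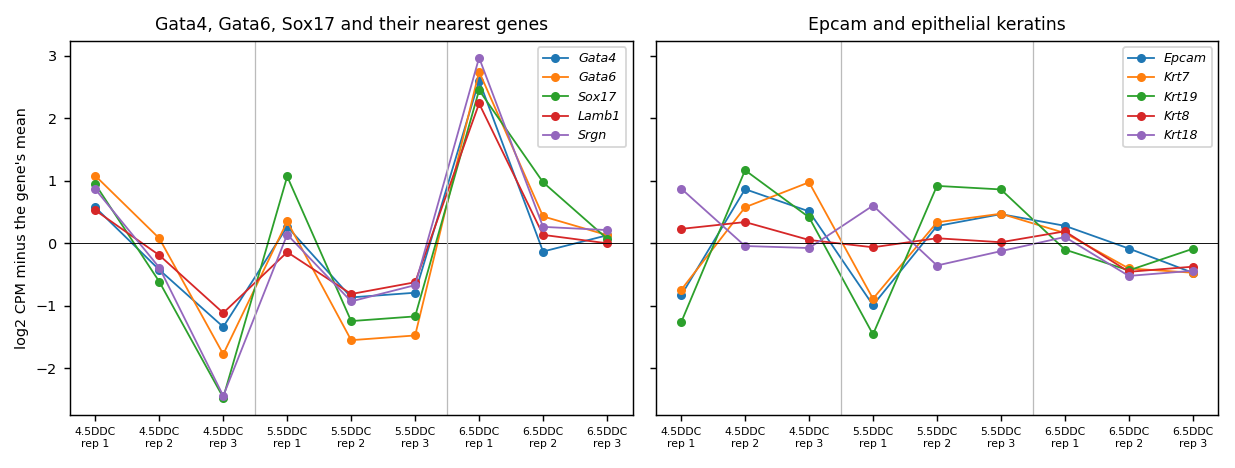
Log2 CPM of each gene minus its mean over the 9 libraries (vertical axis) in each library (horizontal axis, by time point and replicate number). In the left panel Gata4, Gata6, Sox17, Lamb1 and Srgn share a maximum in replicate 1 of 6.5DDC, and in the right panel Epcam, Krt7 and Krt19 are lowest in replicate 1 of 4.5DDC and 5.5DDC, where Krt18 is highest.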

How the data were processed

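Polyadenylated RNA of 9 libraries of sorted NSCs was measured by short single-end sequencing. The authors aligned reads to GRCm38 using TopHat2 2.0.4 and deposited counts per gene from HTSeq 0.6.1, without normalization, and FPKM from Cufflinks 2.1.1, used here as levels. For 98 of 38197 symbols, none of them a member, the deposited values were not whole, as in expected counts, although whole counts had been planned for, and all were rounded. The deposited limma voom log2 values were not used. The annotation release and the strand setting of the counting are not given in the sources used here.

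Counts were filtered with filterByExpr, scaled by TMM and tested with edgeR 4.0.16 in R 4.3.3 (glmQLFit, glmQLFTest) with time point as factor, or time point and replicate number for the replicate comparison, and Benjamini-Hochberg adjustment over 14742 genes at 0.05. Standard errors were derived from the log2 fold change and its F statistic, and 95% intervals from these and the t distribution. Likeness used log2 CPM with a prior count of 2, among genes whose mean reached 1 FPKM. Within-number changes used CPM after adding 0.5 counts. Library totals of 11066568 to 25506193 counts set the precision, with floors for counting error alone. The code was tested on simulated data. Alternatives were other scalings and filters, DESeq2 1.42.0, limma 3.58.1 (voom, and log2 FPKM), fits of 6 libraries, a block for the replicate number, and leaving out each library. For libraries with the same number, deviations from the time-point means correlated over genes at 0.743, 0.386 and 0.452 (4.5DDC with 5.5DDC) and 0.454, 0.367 and 0.197 (5.5DDC with 6.5DDC). Between numbers 2 and 3 the values were 0.291 and 0.39, then 0.225 and 0.405. Between number 1 and the others they were negative. Deviations cancel within a time point, so a positive value for number 1 with itself forces negative ones on balance, which add no support. The numbers thus set replicate 1 apart in adjacent time points but did not clearly pair replicates 2 and 3. Among the time comparisons only the block alternative uses the number. Positions are from GENCODE M21. The members and marker lists were chosen with earlier results of these data known. All 10 members are named, with the members of the lists that were called or define a tissue, and the 5 genes most like each tested member. The symbols Spink1 and Tubb3 of the lists had no match in the tables. Part of the floor plate list is not reported here.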

Additional observations from a re-analysis of the deposited data

Results flagged for a closer look

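For Epcam and Krt8, libraries numbered 1 moved one way between time points and those numbered 2 and 3 the other, and these differences were not tested. From 4.5DDC to 6.5DDC the log2 change of Epcam was 1.10 within replicate 1 and −0.944 and −0.97 within replicates 2 and 3. Over the second interval, 5.5DDC to 6.5DDC, its change was 1.27 against −0.363 and −0.931. The log2 change of Krt8 from 5.5DDC to 6.5DDC was 0.257 within replicate 1 and −0.537 and −0.392 within replicates 2 and 3. Krt7 and Krt19 had the signs of Epcam over the whole span, with 0.91 and 1.16 within replicate 1, −0.978 and −1.60 within replicate 2 and −1.44 and −0.503 within replicate 3.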

How the results depend on the processing

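With the replicate number as a block, 4 of the 6 tested genes were called from 4.5DDC to 6.5DDC, where 3418 of all 14742 genes were: Sox17 (log2 fold change 1.67, adjusted p = 0.0311 from edgeR), Gata4 (1.34, adjusted p = 0.0365), Gata6 (1.27, adjusted p = 0.0488) and Krt18, which fell by 0.54 (adjusted p = 0.0334), and 3 for any difference (Gata4, Gata6 and Sox17), where 2180 of all genes were. Over this span the deviations of libraries numbered 1 correlated at 0.383. Number 1 of 4.5DDC had −0.371 and −0.214 with numbers 2 and 3 of 6.5DDC, signs that follow in part from centring on the time-point means. Libraries numbered 2 had −0.0396 and those numbered 3 had −0.215, against 0.46 and 0.487 between these numbers. The numbers thus set replicate 1 apart but did not pair replicates 2 and 3. The 4 genes called with the block had replicate 1 above replicates 2 and 3 at every time point. The block changed no call in the shorter intervals. Leaving out each library gave between 0 and 1 genes called from 4.5DDC to 6.5DDC, 0 in the other time comparisons and 3 to 5 between replicate numbers. Limma on log2(FPKM + 1) called 2 genes between replicate numbers, Gata4 and Krt18, and the cause was not tested. The value of Krt8 between replicate numbers ran from −0.040 (reversed, without replicate 1 of 6.5DDC) to 0.32 over the fits that left out a library. The other scalings, filters and tests called 0 genes between time points, and 3 to 6 between replicate numbers. Genes with under about 3 counts in a library are limited by depth.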
